A study of Homo sapiens with 6 samples.

Results

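The genes described here are 10 enzymes of sphingolipid metabolism: SPTLC1, SPTLC2, CERS2, CERS4, CERS5, CERS6, DEGS1, UGCG, SGMS1 and SMPD1. They were picked by gene symbol, with earlier results of the same comparison in view, among them the difference at CERS6. The probe set of each gene was chosen by its mean over all arrays, taking the brightest. Of the 10, 6 were measured under their names, out of 14884 named genes in the whole series. SPTLC1, SPTLC2, DEGS1 and SMPD1 had no probe set annotated with their name alone and are not analysed. Probe sets annotated with several gene symbols were left out here, so genes not measured may still be on the array. Since the comparison had a part in choosing the genes, their differences are given as a description and carry no p-value. Tests are given for 47 further genes of the pathway, those measured among 86 listed. These lists too were drawn up with earlier results of these data known. Their p-values and shares called are therefore not independent of that knowledge.

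The arrays hold RNA of MDA-MB-231, an established human breast carcinoma line, in a control form and with NR1D1 knocked out, 3 arrays each and 6 in all. Both groups had been kept for 72 h with 200 µM H2O2, so untreated cells are in neither group. Each title names its array as a biological replicate, but nothing says how the knockout was made, whether it is 1 clone, what the control cells carry or whether cultures were separate. A p-value here therefore covers only how much these arrays vary, partly perhaps for technical reasons. NR1D1 encodes the nuclear receptor REV-ERBα, a heme-binding repressor of transcription. No probe set was annotated with NR1D1 alone, and those with several symbols were left out, so the knockout itself was not checked here.

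Sphingolipids are built on a long-chain base. Serine palmitoyltransferase, whose core subunits are encoded by SPTLC1 and SPTLC2, joins serine to a fatty acyl-CoA, and after reduction a ceramide synthase adds a second fatty acid. DEGS1 then places the double bond that makes ceramide. Ceramide synthases differ in the fatty acid they prefer: CERS5 and CERS6 favour the shorter palmitoyl chain, CERS4 intermediate chains and CERS2 very long chains. Ceramide is next turned into glucosylceramide by UGCG or sphingomyelin by SGMS1, and acid sphingomyelinase, the product of SMPD1, releases it again in the lysosome. In tumour cells ceramide is known mainly as a lipid linked to stress and cell death, and its derivative sphingosine 1-phosphate as a signal for growth and migration.

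The promoters of 3 measured members are shown because CERS6 differed most between the groups, CERS5 is the member closest to it in fatty acid preference, and UGCG was on the other side of 0. Each sequence gives the 250 bases before the annotated start, 5′ to 3′ on the gene's strand, from RefSeq (GRCh38.p14). They lie at chr2:168456022-168456271 (plus strand) for CERS6, chr12:50167370-50167619 (minus strand) for CERS5 and chr9:111896564-111896813 (plus strand) for UGCG. Capitals mark the GC box GGGCGG and the CCAAT box on either strand.
CERS6: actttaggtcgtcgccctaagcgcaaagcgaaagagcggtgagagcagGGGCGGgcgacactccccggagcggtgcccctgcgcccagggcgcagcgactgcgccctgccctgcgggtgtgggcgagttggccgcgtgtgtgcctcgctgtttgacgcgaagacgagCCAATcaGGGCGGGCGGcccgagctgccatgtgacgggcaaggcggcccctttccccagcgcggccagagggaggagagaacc
CERS5: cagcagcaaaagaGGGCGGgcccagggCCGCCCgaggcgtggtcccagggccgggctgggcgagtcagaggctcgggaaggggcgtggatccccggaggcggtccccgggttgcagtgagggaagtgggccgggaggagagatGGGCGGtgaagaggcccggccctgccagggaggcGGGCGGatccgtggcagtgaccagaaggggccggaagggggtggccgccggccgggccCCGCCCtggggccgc
UGCG: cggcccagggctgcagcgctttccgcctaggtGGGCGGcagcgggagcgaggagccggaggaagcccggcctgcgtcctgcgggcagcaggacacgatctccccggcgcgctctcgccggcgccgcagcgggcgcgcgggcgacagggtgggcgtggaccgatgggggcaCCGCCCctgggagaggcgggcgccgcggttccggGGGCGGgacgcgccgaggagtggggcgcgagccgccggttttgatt

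The window searched ran from 250 bases before to 50 bases after the start, and 8 of the 10 members had 1 or more such windows, 9 in all. CERS2 and CERS4 had none. The half-site AGGTCA, to which REV-ERBα binds as part of a longer element, was sought on both strands and was present in 13.8% of 35116 promoter windows of all genes. Among the members, SMPD1 alone held it, with 2 matches on the minus strand that begin 229 and 206 bases before the start. The longer form of it, with AANT directly before the half-site, was in 0.168% of all windows and in none of the 9. The E-box CACGTG was in 7.26% of all windows and likewise in none of the 9. CERS6 had 1 CCAAT match, 83 bases before its start, and 3 GGGCGG matches, of which a pair overlaps by 2 bases. CERS5 had 5 GGGCGG matches and UGCG had 3, and neither had CCAAT. Across all genes, CCAAT was in 34.6% of windows and GGGCGG in 45.0%. These matches describe letters in a window and do not show whether a factor binds there.

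All values below are the deposited probe set values on the log2 scale, where a difference of 1 is a doubling. In bulk RNA, fewer cells that express a gene and less of its RNA per cell cannot be told apart. The arrays were alike in scale, with medians between 5.18 and 5.22, and correlated at 0.9907 to 0.9934 within groups and 0.9824 to 0.9853 between them. Markers of the line were bright: VIM, for the mesenchymal filament protein vimentin, had a mean of 9.01 in control arrays, CD44 9.86 and the receptor tyrosine kinase gene AXL 11.8. Of the luminal markers, ESR1 (estrogen receptor) was at 5.19, PGR (progesterone receptor) at 3.99 and the transcription factor gene FOXA1 at 5.05, near or below the array medians. GATA3, also a luminal transcription factor gene, was at 7.48 among controls and 6.75 among knockouts (limma, adjusted p = 0.00166). VIM was higher by 0.34 and CD44 lower (-0.35) in the knockout, with adjusted p of 0.0337 and 0.0324. The part of these marker differences in the results was not tested. The 5 measured markers of leukocytes (CD14), fibroblasts (DCN and LUM) and endothelium (PECAM1 and VWF) had control means of 2.57 to 5.26 and none passed the limma threshold. Since no detection calls were used, a low value is not read as absence.

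The ceramide synthase gene CERS6 was 3.65-fold higher in knockout cells, while the other measured ceramide synthase genes differed by 1.12-fold or less. Its values were 6.82, 6.91 and 6.82 in control and 8.92, 8.66 and 8.58 in knockout arrays. All knockout arrays were high and all control arrays low, with no overlap. The means were 6.85 ± 0.0523 and 8.72 ± 0.175 (log2, mean ± SD, n = 3 each), a difference of 1.87 with a standard error of 0.103 from limma. Among all named genes this difference was the 15th in size and the 7th among rises, and it lay on a probe set at the 79.4th percentile of mean level.

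A second, dimmer probe set of CERS6 read 3.29, 4.10 and 3.65 in control and 4.85, 5.18 and 5.05 in knockout arrays. Its groups did not overlap either, although the control arrays were more spread (SD of 0.406 against 0.164 in knockout). It differed by 1.34, less than the brighter one, and the mean of both probe sets differed by 1.61. Both read the same RNA samples and are no independent support for each other. Leaving out any 1 array gave differences of 1.77 to 1.94 at the brighter probe set.

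CERS5, whose product prefers the same chain length as that of CERS6, was at nearly the same level in both groups. Its values were 6.38, 6.34 and 6.40 in control and 6.36, 6.42 and 6.25 in knockout arrays. The groups overlapped, with 1 knockout array at the top and 1 at the bottom of all 6. The difference was -0.032 with a standard error of 0.0801, on a pooled SD of 0.0623 that was lower than for most named genes. Leaving out any 1 array moved it between -0.069 (without knockout replicate 2) and 0.012 (without knockout replicate 3).

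CERS4, for ceramides of intermediate chain length, had 6.29, 6.42 and 6.16 in control and 6.41, 6.48 and 6.48 in knockout arrays. The knockout values lay close together, and the lowest of them fell just below the highest control value. The difference was 0.17 with a standard error of 0.0907, and it was 0.10 without control replicate 3 and 0.23 without control replicate 2. CERS2, for very long chains, had 7.33, 7.52 and 7.47 in control and 7.37, 7.67 and 7.53 in knockout arrays. Its groups overlapped widely, and the difference was 0.085 with a standard error of 0.101. It ranged from 0.013 without knockout replicate 2 to 0.16 without knockout replicate 1, and was 0.031 without control replicate 1. A second probe set of CERS2 gave 0.022, with overlapping groups again.

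**Figure D1:**
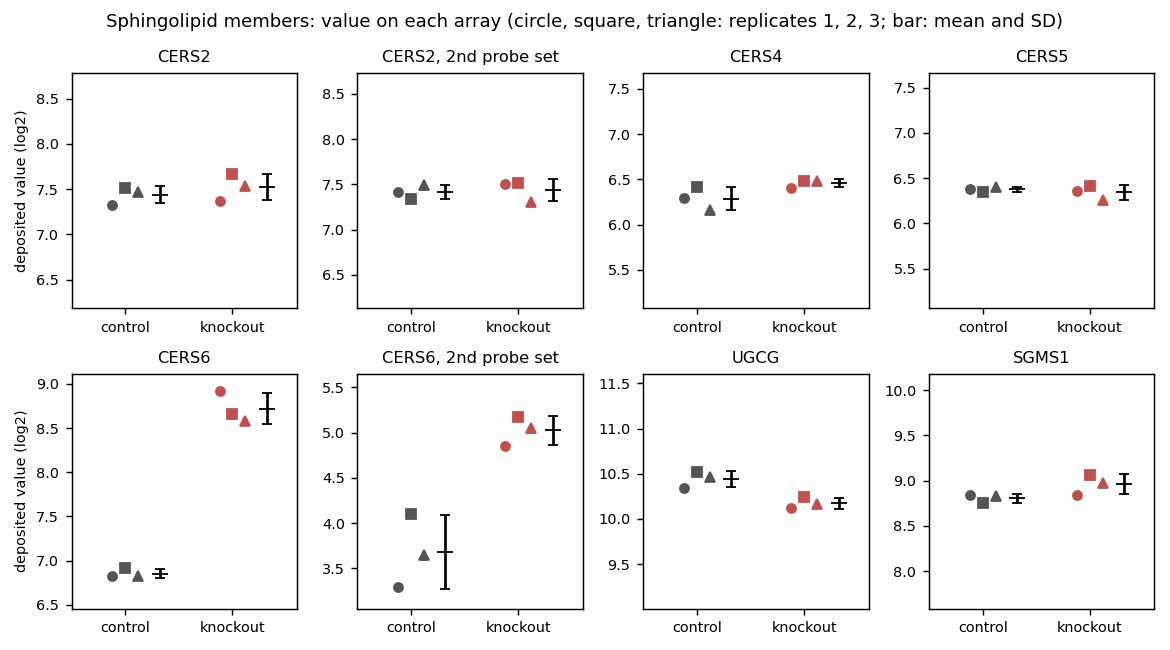
Deposited log2 values of the 8 probe sets of the 6 measured members on each array, control in grey and knockout in red, with the mean and SD of each group in black. The vertical axes span at least 2.6 log2 units and are centred separately for each probe set. Both CERS6 probe sets stand apart between groups, by 1.87 and 1.34, while the 2 CERS2 probe sets overlap.

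The transferases that put a head group on ceramide differed by less, and in opposite directions. UGCG, the glucosylceramide synthase gene, had 10.34, 10.52 and 10.46 in control and 10.12, 10.24 and 10.17 in knockout arrays. Every knockout array was below every control array. The means of 10.44 ± 0.0914 and 10.18 ± 0.0604 (n = 3 each) differed by -0.27 with a standard error of 0.0843, which is 1.20-fold lower. SGMS1, a sphingomyelin synthase gene of the Golgi, had 8.84, 8.75 and 8.83 in control and 8.84, 9.07 and 8.98 in knockout arrays. Its groups barely separated, as the highest control and the lowest knockout value both round to 8.84. The difference was 0.16 with a standard error of 0.0874, or 0.10 without knockout replicate 2 and 0.22 without knockout replicate 1.

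Of the 6 measured members, CERS6 alone passed limma's adjusted threshold of 0.05, as higher, and the other 5 did not. In the same fit 9.49% of all named genes passed, 4.74% as higher and 4.74% as lower. The values of the groups did not overlap for 3 of 6 members (CERS6, UGCG and SGMS1), against 28.7% of all named genes. These counts support nothing about the members, since the comparison had a part in choosing them. The median difference of the 6 was 0.12, and that of all named genes was 0.0039. Of 1412 genes called in all, the count became 789 without control replicate 1, 859 without control replicate 2, 723 without control replicate 3 and 813 without knockout replicate 2, while CERS6 remained called without any 1 array. Under quantile normalization of the deposited values and under centring on array medians, every measured member kept the sign of its difference. When arrays were left out in turn, CERS5 changed sign, to 0.012, without knockout replicate 3, and the other 5 kept theirs.

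Across the 6 arrays, UGCG and CERS6 values correlated at r = -0.906 and CERS4 and CERS6 at r = 0.718 (Pearson, n = 6 arrays). Both figures hold the difference between groups and are given as a description. CERS2 and CERS5 were at r = 0.03. The genes whose values were most like those of CERS6, among 143 named genes that differed by at least 1, were ZNF184 (r = 0.9974), HS3ST3B1 (r = 0.9968), PEG10 (r = 0.9953), MBOAT1 (r = 0.995) and NEO1 (r = 0.9949). All 5 were higher in the knockout, by 1.17, 1.44, 1.14, 2.32 and 2.42 in that order. Of these, MBOAT1 encodes an acyltransferase of lysophospholipids, HS3ST3B1 a heparan sulfate sulfotransferase and NEO1 the netrin receptor neogenin. The correlations of these genes with CERS6 also hold the difference between groups. Since the genes were picked by size and by r, their direction and likeness follow largely from that choice and are only a description.

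In gene order, CERS6 stood above all of its nearest measured neighbours, which its choice with this difference in view made likely. CERS6 lies on chromosome 2, with STK39, a stress-related kinase gene, and NOSTRIN, which encodes a regulator of nitric oxide synthase trafficking, next to it on either side. STK39 differed by -0.17 (limma, adjusted p = 0.227) and NOSTRIN by 0.19 (adjusted p = 0.529). Over its 10 nearest measured coding genes, 5 on each side, the median difference was 0.056, with 7 above and 3 below 0. GALNT3, a mucin-type glycosyltransferase gene, was higher by 0.87 (adjusted p = 0.00203), TTC21B, a ciliary transport gene, was higher by 0.46 (adjusted p = 0.0209) and BBS5, a subunit gene of the ciliary BBSome, was lower by 0.54 (-0.54, adjusted p = 0.0419). UGCG on chromosome 9 had a median of 0.055 over its neighbours, with 7 of 10 above and 3 below 0, and was itself below 0. The genes directly next to UGCG were both among the 3 below 0. SUSD1 was lower by more than UGCG itself (-0.63, limma, adjusted p = 0.00512), and SHOC1 differed by -0.17 (adjusted p = 0.393). The neighbours of the other 4 measured members had medians between -0.085 and 0.0029. CERS2 on chromosome 1 has CTSS, a lysosomal protease gene, within its 10 neighbours, and CTSS differed by -2.21.

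**Figure D2:**
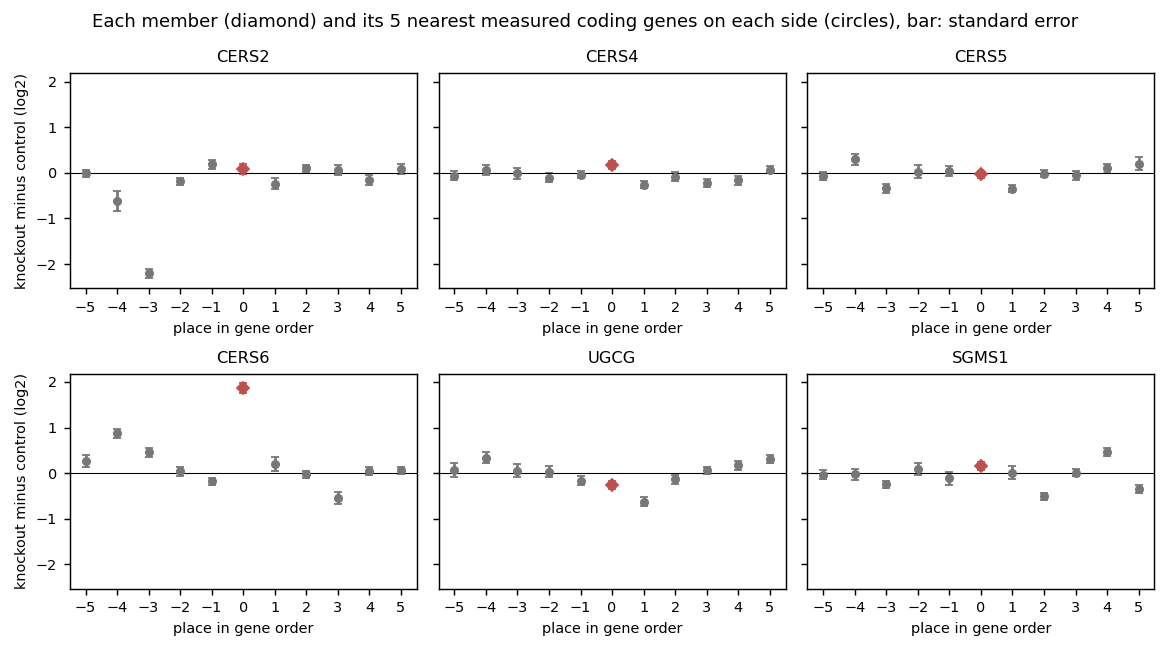
Difference in log2 value, knockout minus control, for each measured member (red diamond, place 0) and its 5 nearest measured coding genes on each side in RefSeq gene order (grey circles), with limma standard errors as bars. CERS6 stands at 1.87 above neighbours that range from -0.54 to 0.87.

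The wider pathway was read from 86 further sphingolipid genes, of which 47 were measured under their names. Of these 47, 1 was higher and 5 were lower by limma with Benjamini-Hochberg adjustment over all named genes, and 41 did not pass. That is 12.8% of the list called, beside 9.49% of all named genes. Since the list was drawn up with earlier results known, this share and those of its parts below are a description. The median difference of the list was -0.089, with 18 genes above and 29 below 0, beside a median of 0.0039 for all named genes.

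The clearest difference of this list belonged to S1PR1, which encodes a receptor for sphingosine 1-phosphate that couples to Gi proteins. Its values were 6.37, 6.51 and 6.41 in control and 5.14, 5.11 and 5.21 in knockout arrays. Both groups were tight and did not overlap. S1PR1 fell from 6.43 ± 0.0754 to 5.15 ± 0.0512 (n = 3 each), 2.43-fold lower (limma, adjusted p = 9.43e-05). Its knockout mean lay just below the array medians of 5.18 to 5.22, and signal over background was not judged. Of 12 measured genes of sphingosine 1-phosphate metabolism and receptors, out of 16 listed, 2 were called lower and none higher. That is 16.7% called, beside 9.49% of all named genes, and 3 of the 12 differences were above 0. The other called gene was PLPP1, which encodes a cell-surface lipid phosphate phosphatase. It had 8.06, 8.48 and 8.03 in control and 7.46, 7.76 and 7.55 in knockout arrays. PLPP1 was 1.52-fold lower (adjusted p = 0.0315), and replicate 2 was the highest of its group in both. Its call was lost when control replicate 1 (adjusted p = 0.0557), control replicate 2 (0.0649), knockout replicate 1 (0.0971) or knockout replicate 3 (0.0878) was left out. The further measured receptor genes S1PR2, S1PR4 and S1PR5 differed by -0.23, -0.17 and -0.076 and did not pass. S1PR2 alone of these had an unadjusted limma p under 0.05 and groups that did not overlap.

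The only gene of the list called higher was UGT8, which makes galactosylceramide from ceramide, the alternative to the glucosylceramide made by UGCG. UGT8 had 7.39, 7.45 and 7.52 in control and 8.22, 8.38 and 8.43 in knockout arrays, with a wide gap between the groups. It rose 1.85-fold, from 7.45 ± 0.0612 to 8.34 ± 0.112 (n = 3 each; limma, adjusted p = 0.000715). The difference at UGCG, of -0.27, had the opposite sign and did not pass. GAL3ST1, which sulfates galactosylceramide to sulfatide, differed by 0.12 (adjusted p = 0.609). Of 15 listed genes of glycosphingolipid synthesis and transfer only 3 were measured, and the third, GLTP, a glycolipid transfer protein gene, did not pass (-0.092). With 1 of these 3 called, the share was 33.3%, beside 9.49% of all named genes.

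**Figure D3:**
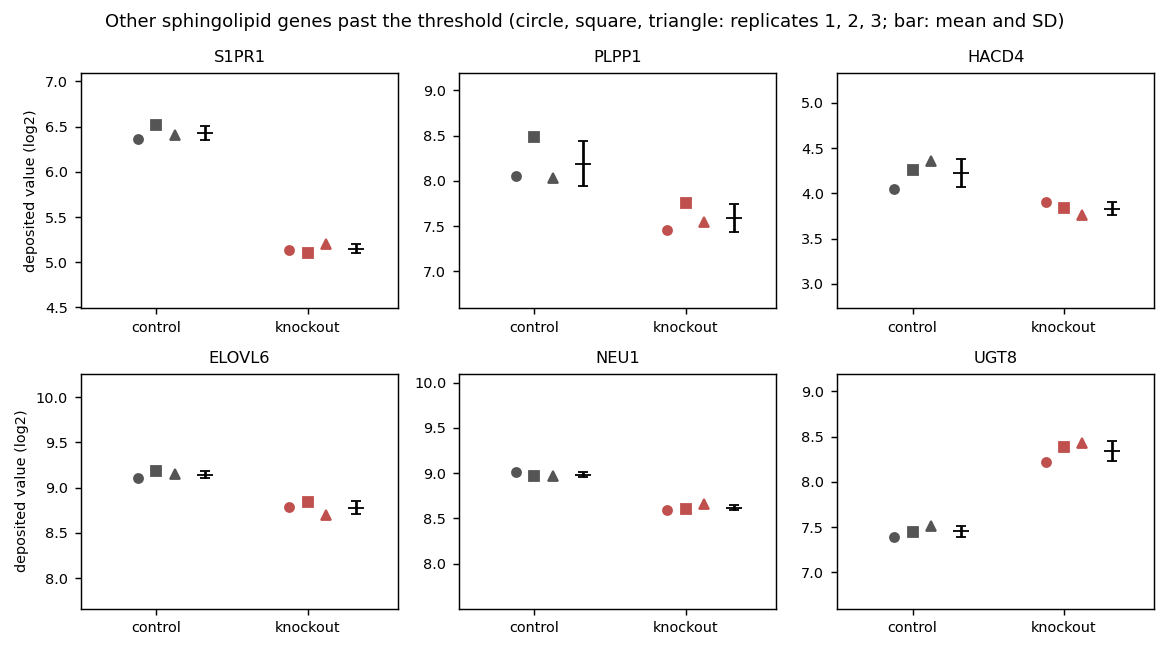
Deposited log2 values on each array of the 6 further sphingolipid genes that passed limma's adjusted threshold, control in grey and knockout in red, with the mean and SD of each group in black. S1PR1 shows the widest gap (6.43 against 5.15), UGT8 is the one that is higher in the knockout, and no gene has overlapping groups.

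Most genes that supply fatty acids to ceramide synthases did not pass the test. Of 11 measured genes of very long chain fatty acid synthesis and 2-hydroxylation, out of 14 listed, 2 were called lower and none higher. That is 18.2% called, beside 9.49% of all named genes, and 4 of the 11 differences were above 0. ELOVL6, the elongase that extends palmitoyl-CoA, had 9.11, 9.18 and 9.15 in control and 8.79, 8.84 and 8.70 in knockout arrays. The groups were apart, and ELOVL6 was 1.29-fold lower (limma, adjusted p = 0.0243). HACD4, a dehydratase gene of the elongation cycle, was dim, with 4.05, 4.26 and 4.36 in control and 3.91, 3.84 and 3.76 in knockout arrays. It was 1.31-fold lower (adjusted p = 0.0472). ELOVL6 missed the threshold without any 1 array, with adjusted p of 0.0662, 0.0825 and 0.0884 without control replicates 1, 2 and 3 and 0.0517, 0.0503 and 0.0717 without knockout replicates 1, 2 and 3. HACD4 lost its call when control replicate 2 (0.132), control replicate 3 (0.16), or knockout replicates 1 (0.0726), 2 (0.118) and 3 (0.127) were left out, each in turn. ELOVL5, an elongase gene for polyunsaturated fatty acids, lay on the other side of 0, at 9.19 ± 0.0732 for control and 9.45 ± 0.12 for knockout (n = 3 each), with groups that did not overlap. It differed by 0.27 and did not pass (limma, adjusted p = 0.117), although its unadjusted p was under 0.05, and it passed with trended and robust empirical Bayes. ELOVL1, the elongase gene for the chains that CERS2 uses, differed by 0.073 (adjusted p = 0.743).

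Early steps of synthesis showed no call. Of 10 listed genes 5 were measured and none passed limma's adjusted threshold, beside 9.49% of all named genes. At that share, the lack of a call among 5 genes says little about these steps. Only ORMDL1 had an unadjusted p below 0.05. ORMDL1 and ORMDL2, whose products restrain serine palmitoyltransferase, had the smallest p-values and lay on opposite sides of 0. ORMDL1 had means of 7.55 ± 0.129 for control and 7.30 ± 0.156 for knockout (adjusted p = 0.218, n = 3 each). ORMDL2 was at 7.69 ± 0.122 and 7.86 ± 0.0584 (adjusted p = 0.306). KDSR, the reductase of the second step, differed by 0.075, and CERS3, the ceramide synthase gene of skin and testis, by -0.080.

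Sphingomyelin genes other than SGMS1 were little covered, with 2 of 9 measured and neither past the threshold. SGMS2, the plasma membrane counterpart of SGMS1, had means of 8.75 ± 0.102 for control and 8.44 ± 0.15 for knockout (limma, adjusted p = 0.109, n = 3 each). SAMD8, which makes the analogue ceramide phosphoethanolamine, differed by -0.089 (adjusted p = 0.663). All 7 listed ceramidase, ceramide kinase and ceramide 1-phosphate transfer genes were measured and none passed. Beside 9.49% of all named genes called, the lack of a call among 2 or 7 genes says little about either group. CERK, the ceramide kinase gene, was at 7.90 ± 0.0738 and 8.21 ± 0.15 (adjusted p = 0.0923), and ASAH1, the acid ceramidase gene, at 8.03 ± 0.131 and 7.59 ± 0.338 (adjusted p = 0.149). Unadjusted p-values under 0.05 were found for SGMS2 in the first of these groups and for CERK and ASAH1 in the second. ASAH1 read 7.21 on knockout replicate 1 against 7.73 and 7.84 on the other knockout arrays, and its difference of -0.44 became -0.24 without that array.

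In the lysosomal and other breakdown of glycosphingolipids, 7 of 15 listed genes were measured, 1 was called lower and none higher. That is 14.3% called, beside 9.49% of all named genes, and 2 of the 7 differences were above 0. NEU1, the lysosomal sialidase gene, had 9.01, 8.97 and 8.97 in control and 8.60, 8.61 and 8.65 in knockout arrays. The groups were far apart for their spread, and NEU1 was 1.29-fold lower (limma, adjusted p = 0.0189). Its call was lost when control replicate 1 (adjusted p = 0.0733), control replicate 2 (0.056), control replicate 3 (0.0713) or knockout replicate 2 (0.0636) was left out. Of the other 6, GM2A, the activator of ganglioside hydrolysis, HEXA, a hexosaminidase subunit gene, GALC, the galactosylceramidase gene, and PSAP, the saposin precursor gene, measured -0.29, -0.25, -0.16 and -0.097 on the log2 scale of difference and did not pass. ARSA, which removes the sulfate of sulfatide, measured 0.032, and NEU3, the plasma membrane sialidase gene, 0.26, also without passing. Of these 6, GM2A alone had an unadjusted limma p under 0.05.

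**Figure D4:**
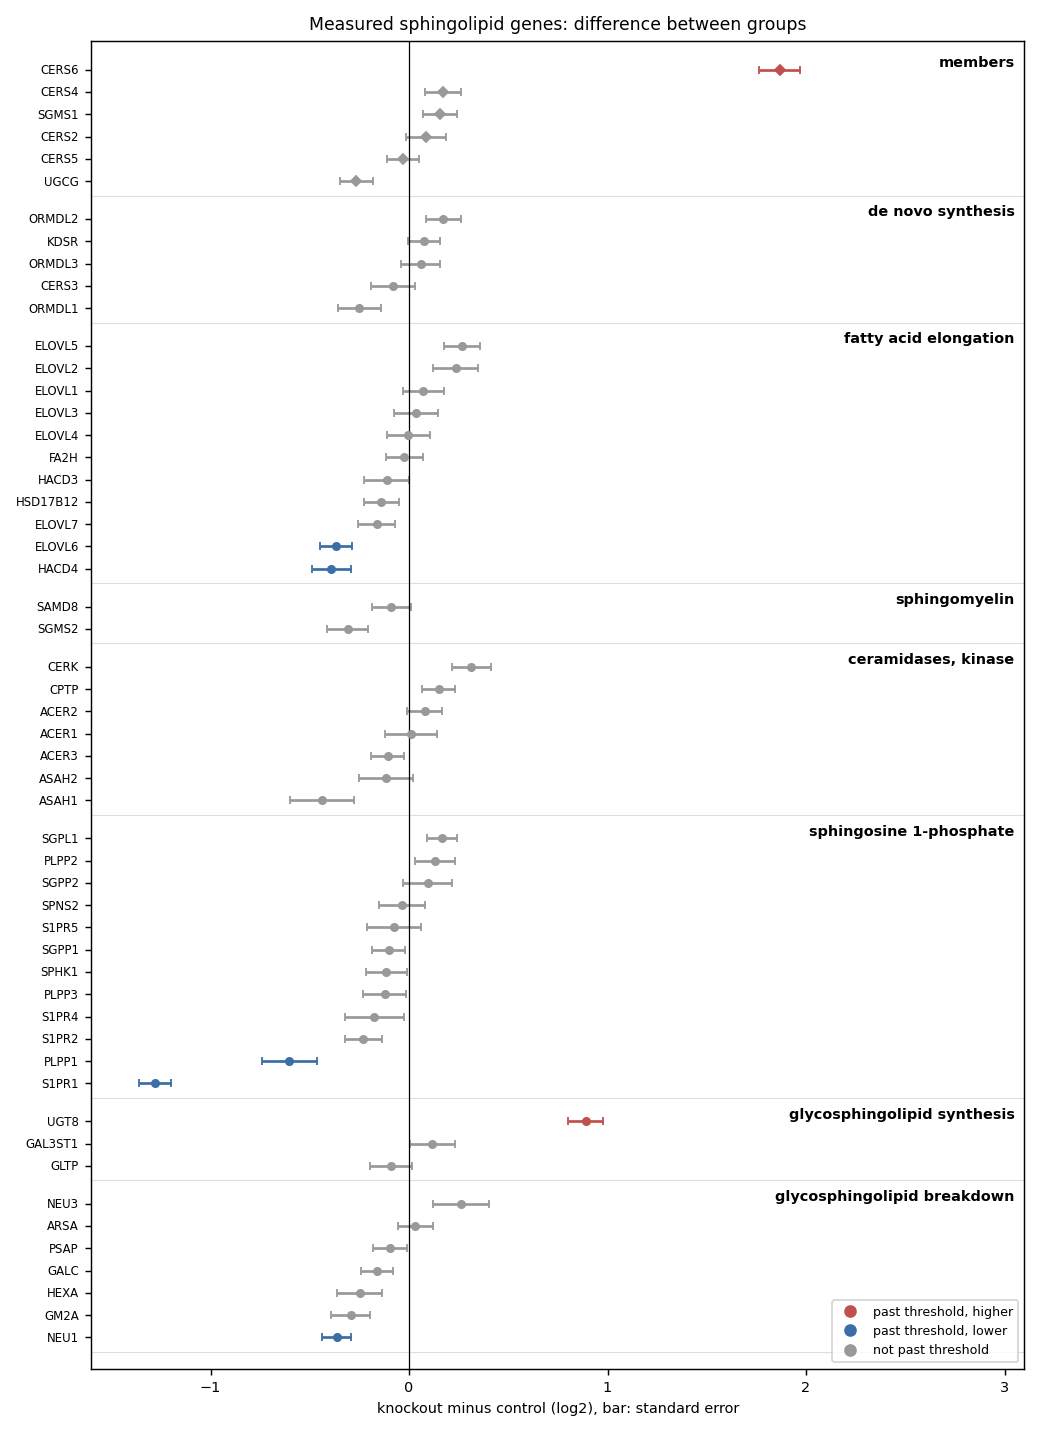
Difference in log2 value, knockout minus control, with limma standard errors as bars, for the 6 measured members (diamonds) and 47 further sphingolipid genes (circles), grouped by role. Red and blue mark genes past the adjusted threshold as higher or lower. CERS6 at 1.87 and UGT8 at 0.89 are the red points and S1PR1 at -1.28 is the lowest blue point.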

How the data were processed

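Total RNA of 3 control and 3 NR1D1 knockout samples was amplified with a whole-transcript kit and biotin-labelled, per the labels' protocols. The single deposited table holds values taken to be log2 from their range (1.16 to 13.75). The array medians were alike (5.18 to 5.22), but whether and how the values were normalized between arrays was not established. The sources used here name no software and no method of normalization. If the scale is wrong, every fold changes with it.

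Probe sets were named through the platform annotation and checked by gene ID against RefSeq genes. Only the 16098 of 53617 with a single symbol were used, and those with several symbols were left out. The brightest probe set per gene was kept, with no filter on low values. The fit used limma 3.58.1 (R 4.3.3; lmFit, eBayes, two-sided, Benjamini-Hochberg over 14884 genes, threshold 0.05). The procedure was tested on simulated data. The members and lists were chosen with earlier results of these data known. Besides the members, up to 4 called genes per role were named by size, or 2 by smallest p where none was called, and others are given as values. KDSR, CERS3, ELOVL1, ELOVL5, GAL3ST1, GLTP, the S1PR and breakdown genes that did not pass were named after their values were seen, as were the CERS6 neighbours beyond the nearest. CCAAT and GGGCGG were added after the first motif search. Protein sequences were not used here. Figures were drawn with matplotlib 3.10.9.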

Additional observations from a re-analysis of the deposited data

How the results depend on the processing

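The fit was repeated under 13 alternatives, and CERS6, S1PR1 and UGT8 were called in all 13. For CERS6, picked with its difference in view, this shows only how its call depends on the settings. The alternatives included quantile normalization of the deposited values, centring on medians, leaving out the dimmest 25% of genes, averaging probe sets and array weights. Trended and robust empirical Bayes, the replicate block and leaving out each array were the others. With trend and robust settings, 2 members were called, UGCG being the second, as lower, and 8 further sphingolipid genes were called, 3 higher and 5 lower. CERK, ELOVL5 and SGMS2 were newly called there and HACD4 was not. The replicate numbers share no stated culture or day, and deviations of same-numbered arrays correlated at 0.0547, 0.0681 and -0.106, so the numbers were not taken as pairs. With the replicate block, 3 of the 6 further sphingolipid genes stayed called (S1PR1, UGT8 and PLPP1) and 1050 genes in all. Leaving out 1 array, which also leaves fewer samples, gave 2 to 3 further sphingolipid genes and 723 to 1049 genes in all. HACD4 also missed the threshold after centring (adjusted p = 0.0579) and, being dim, was absent from the fit without the dimmest genes. Signal over background could not be judged without detection calls.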
